A study of Drosophila melanogaster with 16 samples.

Results

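The microRNA genes of Drosophila melanogaster were described by 3 histone marks in 3 populations of adult head neurons. Members were chosen by name: 168 genes had a symbol beginning with mir- or equal to let-7, and bantam, listed as ban, was added by its identifier. This gave 169 of 15182 genes. The choice went by name, but its rule was written with earlier results of these data known. That rule named mir-10, mir-276a and mir-276b as members that differ, so their differences below were not first found here.

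MicroRNAs are short RNAs cut from hairpins in longer transcripts. In the nucleus Drosha and Pasha cut the primary transcript, in the cytoplasm Dcr-1 cuts the hairpin, and AGO1 with gw carries the product to messenger RNAs that are then silenced. Neighbouring hairpins often share a primary transcript, so several microRNAs can be under 1 promoter, which may lie far from the hairpin. H3K4me3 marks active promoters, H3K27ac marks active promoters and enhancers, and H3K27me3 marks genes held silent by Polycomb proteins.

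Nuclei came from frozen heads of adult flies in which a GAL4 driver made unc84-GFP, a tagged nuclear envelope protein, and GFP-bearing nuclei were captured on antibody-coated beads. The OK107 line (OK107-GAL4) labels mainly Kenyon cells, which form the mushroom body, the Tdc2 line (Tdc2-GAL4) labels mainly octopaminergic neurons, and the R57C10 line (R57C10-GAL4) labels all mature neurons. Neurons of the first 2 lines can thus also be among those of R57C10. OK107 had 1 library of each mark, Tdc2 had 2 of H3K27me3 and 1 of each other mark, R57C10 had 2 of each mark, and each line had 1 input, which is chromatin without immunoprecipitation. Paired libraries are called early and late by the date-like tag in their column names. No tag of an R57C10 library recurs in OK107 or Tdc2 for the same mark or input, so line and tag cannot be told apart in comparisons with R57C10. The labels do not say whether the pairs came from separate preparations, so p-values measure a spread that may be technical. In bulk nuclei, a mark on fewer cells and less of it per cell cannot be told apart.

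Reads were counted in the 1001 bp promoter window of each gene, which for a microRNA is centred on the 5' end of the annotated hairpin and not on the start of the primary transcript. Windows of all genes held 8.39 M reads of H3K27me3 in OK107, 1.37 and 1.25 M in Tdc2 and 7.16 and 5.60 M in R57C10. H3K27ac libraries held 7.95 to 17.2 M, H3K4me3 libraries 6.01 to 46.64 M and inputs 7.42 to 8.68 M. The thinnest libraries were the 2 of H3K27me3 in Tdc2, where the median microRNA window held 87 and 77 reads, so small differences there were not detectable. Levels are counts per M reads (CPM), after TMM scaling over the libraries of a mark and by total count for inputs. Ratios and folds to input come instead from 1 TMM scaling of marks and inputs together, so they can differ from the quotient of the printed levels, and whether a window lies above or below input is read from them. A called member has an adjusted p below 0.05 by edgeR's quasi-likelihood test with Benjamini-Hochberg adjustment over all genes tested. All 169 members passed the filter on low counts in every comparison.

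The hairpins are 54 to 215 bp long on the dm3 assembly, with a median of 92.0 bp. They fell into 114 loci when neighbours within 10000 bp were joined, and 23 of these loci held several members, 78 in all and up to 9 together. Annotated genes contained 75 hairpins on the same strand and another 17 on the opposite strand alone, and 77 lay outside genes. For 31 members the window overlapped the promoter window of another gene, so their values cannot be told apart from that gene's promoter. Counts of members therefore include neighbours that share reads, and loci are given beside some of the counts but not all.

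The drivers were checked on marker promoters. H3K27ac at ey, a Kenyon cell gene, was higher in OK107 than in R57C10 by a log2 fold change of 2.15 ± 0.27 (SE, adjusted p = 1.38e-11). The other 9 of the 10 Kenyon cell genes were not called and stood between -0.33 and 0.58, when 7.42% of all genes were higher and 3.07% lower. Of 3 octopaminergic genes, Tdc2, which makes the precursor of octopamine, and Vmat, which loads octopamine, were higher in Tdc2 than in R57C10. Their folds were 1.19 ± 0.28 and 1.15 ± 0.28, and Tbh stood at -0.01. In H3K27me3 the 10 Kenyon cell genes summed to 404 CPM in OK107, 756 and 823 CPM in Tdc2 and 902 and 1181 CPM in R57C10. The 3 octopaminergic genes summed to 417 CPM in OK107, 154.5 and 188 CPM in Tdc2 and 425 and 562 CPM in R57C10. Promoters of other cell types were called as well. In Tdc2 against R57C10, 4 of 8 muscle, fat body and blood genes, 2 of 7 glial genes and 3 of 8 photoreceptor genes were higher in H3K27ac, and 3 of 8 neuronal genes were lower, when 20.2% of all genes were higher and 7.68% lower. In OK107 against R57C10, 2 of 8 muscle, fat body and blood genes and 2 of 7 glial genes were higher, and 2 of 8 neuronal genes and 1 of 8 photoreceptor genes were lower. The summed H3K27ac of the 8 muscle, fat body and blood genes was 271 CPM in OK107, 332 CPM in Tdc2 and 236 and 229 CPM in R57C10, against 597 to 611 CPM in the inputs. That of the 7 glial genes was 425, 438, and 318 and 329 CPM in the same order, that of the 8 photoreceptor genes was 618, 588, and 586 and 539.6 CPM, and no listed gene of any kind was at 0. In H3K27me3 the photoreceptor genes summed to 1690 CPM in OK107, 786 and 893 CPM in Tdc2 and 1752 and 2194 CPM in R57C10, with 3 of 8 lower in Tdc2 than in R57C10. The glial genes summed to 1235 CPM in OK107, 652 and 656 CPM in Tdc2 and 1199.7 and 1438 CPM in R57C10, with 2 of 7 lower in Tdc2. Of the muscle, fat body and blood genes 1 of 8 was higher in H3K27me3 in Tdc2 and 1 lower, when 1.3% of all genes were higher and 6.08% lower. The part of other cell types in the values below was not tested.

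Most microRNA windows carried little of the 2 active marks. Against input, with the 3 lines together, H3K4me3 was higher at 11 members and lower at 122, when 88.4% of all genes tested were called, 40.4% higher and 48.0% lower. H3K27ac was higher at 25 members and lower at 86, when 71.6% of genes were called, 35.9% higher and 35.7% lower. H3K27me3 was higher at 39 members in 24 loci and lower at 49, when 44.7% of genes were called, 21.9% higher and 22.8% lower. With DESeq2's median-of-ratios scaling (RLE) the H3K27me3 split became 45 higher and 24 lower, when 3929 of 14730 genes were higher and 1122 lower. With total counts it became 30 higher and 88 lower, when 1809 genes were higher and 8241 lower. The H3K4me3 split became 14 higher and 102 lower with RLE and 9 higher and 146 lower with total counts. There the median of all genes was -0.93 with TMM, -0.13 with RLE and -1.65 with total counts. The count on each side thus depends on the scaling.

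The highest ratios of H3K27me3 to input included microRNAs of the Hox complexes and of a cluster on the X chromosome, with mir-985 at 2.58 and mir-280 at 2.34 on the log2 scale among them. In the Hox complexes, whose genes set identity along the body axis, mir-10 lies between Hox genes of the Antennapedia complex (chromosome 3R, 2635228 to 2635304), mir-993 is a related hairpin (3R, 2602055 to 2602173), and mir-iab-8 lies in the bithorax complex, where it represses Hox genes (3R, 12681997 to 12682064, within the noncoding gene msa). At mir-10 H3K27me3 stood at 336 CPM in OK107, 103 and 124 CPM in Tdc2 and 289.9 and 399 CPM in R57C10, against inputs of 55.4, 51.0 and 48.8 CPM. Every mark library lay above its input, and both Tdc2 libraries lay below all others. Over input the log2 fold change was 2.57 ± 0.35 at mir-10 (SE, adjusted p = 0.000258), 2.31 ± 0.34 at mir-993 and 2.86 ± 0.30 at mir-iab-8. All 3 were lower than input in both active marks, with H3K27ac at -1.80, -2.25 and -2.75 on the log2 scale.

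The X-linked locus holds 9 members from mir-972 (X, 19445185 to 19445275) to mir-979 (X, 19455870 to 19455964), among them fast-evolving microRNAs known from testis. At mir-972 H3K27me3 reached 287 CPM in OK107, 154 and 157 CPM in Tdc2 and 274 and 341 CPM in R57C10, while its inputs lay at 33.0, 39.0 and 45.7 CPM. Its log2 fold change over input, 3.03 ± 0.28 (adjusted p = 0.000103), was the largest of any member. Of the 13 members fixed as X-linked clusters, 8 were higher in H3K27me3, none was lower, and 12 were lower in H3K27ac. The exception in H3K27ac was mir-303, whose window is shared with the promoter of CG3626.

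The mir-959 cluster, 6 hairpins within CG31646 on the opposite strand (2L, 5640940 to 5642201), is known for daily rhythms in the fat tissue of the head. All 6 members were higher than input in H3K27me3, by 1.94 to 2.06 on the log2 scale, and 0 of 6 were called in H3K27ac. At mir-8, which acts in fat body and nervous system, and mir-278, which acts in energy balance, the log2 fold changes were 1.64 ± 0.24 and 1.71 ± 0.25. The share with H3K27me3 above input differed by position: 6 of the 75 members inside a gene on its own strand, 8 of 17 inside a gene on the opposite strand and 25 of 77 outside genes. The 8 on the opposite strand include all 6 members of the mir-959 cluster, which is 1 locus. These counts describe the members, many of which share a locus, and were not tested against each other.

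The let-7 complex, a single transcript of mir-100, let-7 and mir-125 that times development, was lower than input in H3K27me3 at 2 of 3 members and in H3K27ac at all 3. At let-7 (2L, 18472034 to 18472111) H3K27me3 was 33.3 CPM in OK107, 50.4 and 53.8 CPM in Tdc2 and 28.7 and 28.0 CPM in R57C10, against inputs of 63.4, 91.0 and 86.7 CPM. All mark libraries were below input at this hairpin, whose nearest start of another annotated gene was 12404 bp away. In the mir-2 seed family, whose members repress cell death genes, 10 of 13 were below input in H3K27me3. The 14 mirtrons, hairpins made by splicing of short introns, were lower in H3K27ac at 11 and higher at 1.

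A small set of members carried the active marks. mir-14, which restrains cell death and fat storage (2R, 5441267 to 5441329), had 137 CPM of H3K4me3 in OK107, 98.6 CPM in Tdc2 and 146 and 223 CPM in R57C10, while inputs lay at 41.5, 50.2 and 49.6 CPM. Its H3K27ac was 123 CPM in OK107, 113 CPM in Tdc2 and 185 and 152 CPM in R57C10. Every library of both active marks was above its input there, and the log2 fold changes over input were 2.30 ± 0.36 in H3K4me3 (adjusted p = 2.62e-09) and 1.54 ± 0.18 in H3K27ac (adjusted p = 7.42e-11). The nearest annotated start of another gene was 5836 bp from mir-14.

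At mir-276a, which acts in mushroom body neurons in olfactory memory through a dopamine receptor (3L, 10358328 to 10358425), H3K4me3 was 87.4 CPM in OK107, 61.5 CPM in Tdc2 and 85.1 and 156 CPM in R57C10, against 29.8, 46.1 and 43.1 CPM in the inputs. The log2 fold change over input was 1.92 ± 0.34 in H3K4me3 (adjusted p = 1.12e-07) and 1.33 ± 0.21 in H3K27ac, with the nearest other start 47588 bp away. Its near copy mir-276b lies upstream on the same strand (3L, 10312885 to 10312983). There H3K4me3 was below input, 7.94 CPM in OK107, 15.8 CPM in Tdc2 and 13.8 and 5.16 CPM in R57C10 against 62.3, 81.9 and 76.3 CPM, and the log2 fold change was -2.07 ± 0.60 (adjusted p = 0.000836).

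mir-1000, a brain microRNA that limits glutamate release (3R, 21414581 to 21414680, within msi on the opposite strand), was above input by 1.59 ± 0.39 in H3K4me3 and 1.20 ± 0.22 in H3K27ac. mir-124, the most neuronal of conserved microRNAs, was above input in H3K27ac by 0.80 ± 0.21 (adjusted p = 0.000632) but was not called in H3K4me3, at -0.34 ± 0.60 (adjusted p = 0.587). The highest ratio of H3K27ac, 2.08 ± 0.19 at mir-2496, and the highest of H3K4me3, 2.46 ± 0.50 at mir-303, were in windows shared with promoters of other genes, as were 6 of the 11 members called higher in H3K4me3. Among the 24 members of the brain and sense organ list, 4 were higher and 8 lower in H3K27ac and 3 were higher and 15 lower in H3K4me3.

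**Figure D1:**
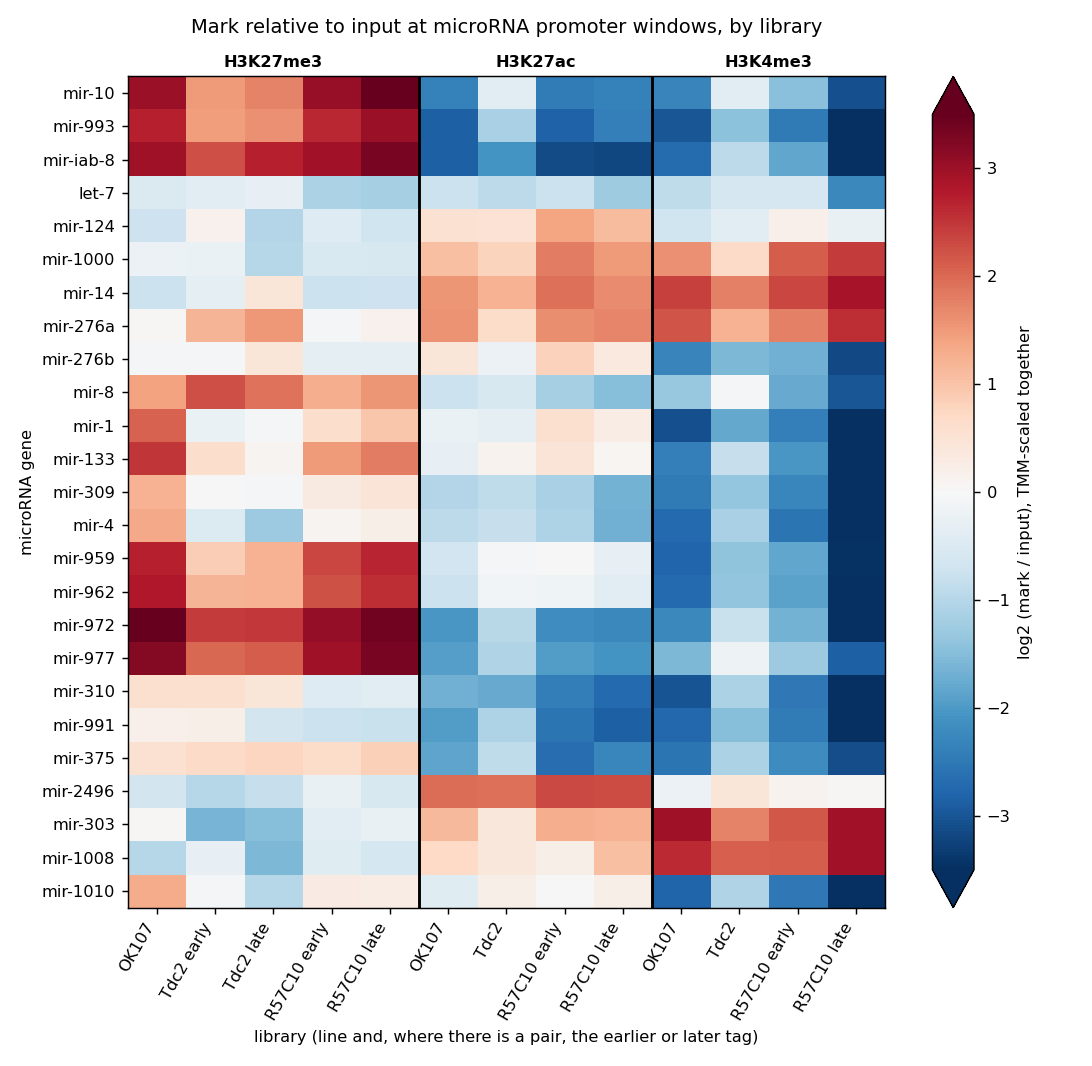
Mark over input on the log2 scale, with marks and inputs scaled together, in the promoter window (colour, saturating at both ends of the bar) for 25 microRNA genes (rows) in each library of the 3 marks (columns). The Hox members mir-10, mir-993 and mir-iab-8 and the X-linked mir-972 and mir-977 are red in H3K27me3 in every library and blue in H3K27ac, and mir-14, mir-276a and mir-1000 are red in both active marks.

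Octopaminergic neurons were compared with all neurons first in H3K27me3. In Tdc2 against R57C10, 25 members in 16 loci were called, 7 higher and 18 lower, when 7.37% of all genes were called, 1.3% higher and 6.08% lower. The 18 lower members lay in 12 loci and their folds ran from -2.11 to -0.98 on the log2 scale, and the 7 higher members lay in 4 loci with folds of 0.87 to 1.59. The median over the 169 members was 0.03, against 0.07 over all genes. Ratios to input spanned a narrower range in Tdc2. A log2 ratio of H3K27me3 above 1 was found at 11.3% of all genes in Tdc2, 14.8% in OK107 and 14.5% in R57C10. The highest member stood at 2.55, 3.67 and 3.38 in the same order. The part of this narrower range in the folds of single members was not tested.

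The calls depended on the scaling. Total counts gave 30 higher and 23 lower members, 31.4% of members, when 16.2% of all genes were called. The median of all genes was then 0.38. Another scaling took out how the fold ran with the mark-to-input ratio of the line not compared, here OK107 (scaling along enrichment). It also takes out a real change that runs with that ratio. There 0 members and 0 genes passed by edgeR, with 40 members at an unadjusted p below 0.05, and 23 of the 25 kept their direction. Without the R57C10 early library 25 members were called and without R57C10 late 17, with 0 higher in either. Those counts are 14.8% and 10.1% of members, when 8.17% and 4.65% of all genes were called. Without Tdc2 early or Tdc2 late, when the R57C10 pair alone gives the spread, 80 and 66 members were called, 47.3% and 39.1% of them, against 38.3% and 34.5% of all genes.

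Members of the Hox complexes had less H3K27me3 in Tdc2. At mir-10 the levels above gave a log2 fold change of -1.60 ± 0.27 (adjusted p = 0.0234), and along enrichment it was -0.46 (adjusted p = 0.419). At mir-993 H3K27me3 was 195 and 217 CPM in Tdc2 against 426 and 559.8 CPM in R57C10, a log2 fold change of -1.26 ± 0.26 (adjusted p = 0.0358) that was -0.21 along enrichment (adjusted p = 0.729), and inputs were 98.2 and 96.0 CPM. The Tdc2 libraries lay below those of R57C10 and still above input. mir-iab-8, at 225 and 311 CPM in Tdc2 against 348 and 455 CPM in R57C10, had a log2 fold change of -0.58 and was not called.

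Of the 6 members of the mir-959 cluster 4 were lower, with folds of -1.40 to -1.10 on the log2 scale, and mir-959 itself had 149 and 194 CPM in Tdc2 against 364 and 456 CPM in R57C10. Along enrichment the 4 folds shrank to between -0.41 and -0.03. Of the 13 X-linked members 2 were lower, mir-972 at -0.98 and mir-977 at -1.18, and both changed sign along enrichment, to 0.31 and 0.02. mir-2499, a hairpin of the same locus outside that list, stood at -1.40 ± 0.27, and at -0.38 along enrichment. The 10 members of the early embryo list gave 0 calls with folds of -1.13 to -0.44. They are hairpins of a cluster that clears maternal messages, with mir-318 and mir-994 of another locus.

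The largest fall was at mir-289, within bru-3 on the opposite strand (3L, 13613922 to 13614020). H3K27me3 there was 78.2 and 76.9 CPM in Tdc2 against 281 and 391 CPM in R57C10, on inputs of 101 and 83.4 CPM. The log2 ratios to input were 0.11 and 0.08 in Tdc2 and 2.23 and 2.70 in R57C10, so Tdc2 lay near its input and R57C10 far above. The log2 fold change between the lines was -2.11 ± 0.26 (adjusted p = 0.0197), and -1.80 along enrichment (adjusted p = 0.0767). mir-133, a partner of mir-1 in vertebrate muscle, had 86.4 and 60.1 CPM in Tdc2 against 181 and 227 CPM in R57C10, a log2 fold change of -1.47 ± 0.27 (adjusted p = 0.0276), and -0.50 along enrichment. mir-280 stood at -1.41 ± 0.26 by the same test (adjusted p = 0.0268), and at -0.34 along enrichment (adjusted p = 0.528).

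Members of the brain and sense organ list moved both ways, with 3 lower and 1 higher of 24. mir-219, linked to circadian timing in mammals, had 80.1 and 75.5 CPM in Tdc2 against 184 and 236 CPM in R57C10, a fold of -1.43 ± 0.23 (adjusted p = 0.0233). mir-137, which acts in neuronal development in mammals, fell to 28.4 and 26.6 CPM in Tdc2 against 64.2 and 72.6 CPM in R57C10, and mir-184, which acts in germline development, to 100.3 and 129 CPM against 214 and 274 CPM. The folds of mir-137 and mir-184, -1.31 and -1.09, were -1.38 and -1.16 along enrichment, close to those without that scaling.

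The member of that list that rose was mir-276a. Its H3K27me3 was 75.7 and 95.8 CPM in Tdc2 against 29.5 and 34.4 CPM in R57C10, on inputs of 46.1 and 43.1 CPM. The log2 ratios to input were 1.20 and 1.52 in Tdc2 and -0.07 and 0.15 in R57C10, so both Tdc2 libraries lay above input and both R57C10 libraries near it. The lines differed by a log2 fold change of 1.42 ± 0.25 (adjusted p = 0.0257), with 1.30 along enrichment (adjusted p = 0.0881). At mir-276b H3K27me3 was 57.4 and 79.7 CPM in Tdc2 against 43.3 and 43.2 CPM in R57C10, a fold of 0.66 ± 0.25 that was not called (adjusted p = 0.15).

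The mir-310 cluster, fast-evolving hairpins on 2R, was higher in Tdc2 at 4 of 6 members, mir-310 to mir-313, by 0.87 to 1.02 on the log2 scale. mir-310 (2R, 16471257 to 16471345) had 105 and 97.9 CPM in Tdc2 against 54.5 and 56.6 CPM in R57C10, when inputs were 100.3 and 104 CPM. Its log2 ratios to input were 0.55 and 0.43 in Tdc2 and -0.45 and -0.40 in R57C10, on either side of input. mir-193, which shares its window with the promoter of CG32441, rose by 1.59 ± 0.37, and mir-287, a neighbour of mir-124, by 1.51 ± 0.32. mir-287 had 37.2 and 52.4 CPM in Tdc2 against 15.7 and 15.6 CPM in R57C10, on inputs of 56.2 and 28.0 CPM. Its input was thus also higher in Tdc2, and its log2 ratios to input were -0.11 and 0.37 in Tdc2 and -0.35 and -0.36 in R57C10. The let-7 complex gave 0 calls, with folds of 0.02 to 1.29, and the mir-2 seed family and the mirtrons gave 0 calls.

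**Figure D2:**
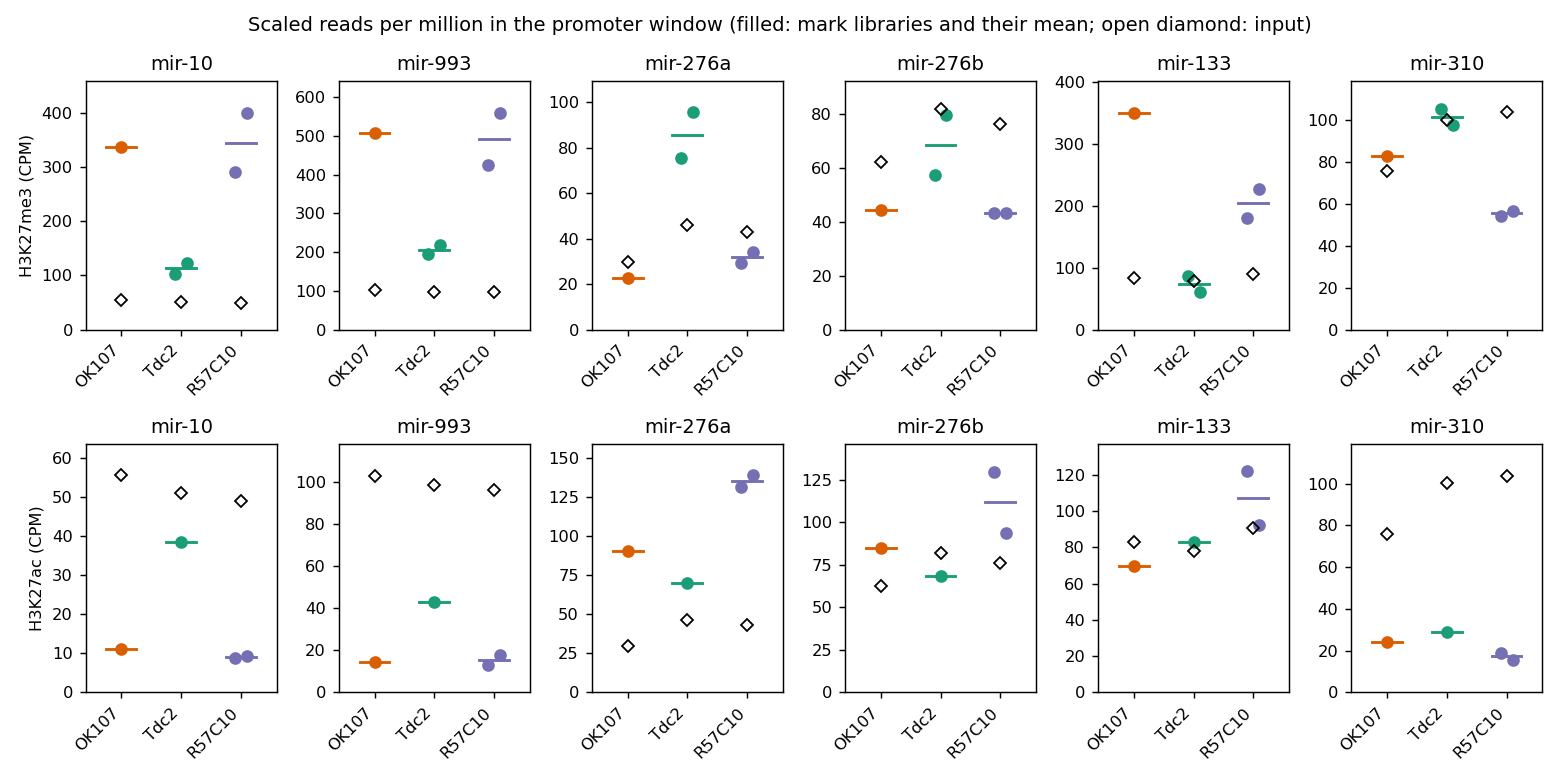
H3K27me3 (upper row) and H3K27ac (lower row) in CPM at 6 microRNA windows, with 1 filled point per library, a bar at the mean of each line and an open diamond for its input, which is scaled by total count. Tdc2 is lower than R57C10 in H3K27me3 at mir-10, mir-993 and mir-133 and higher at mir-276a and mir-310, and in H3K27ac it is higher at mir-10, mir-993 and mir-310 and lower at mir-276a.

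The same lines were compared in H3K27ac, with 1 Tdc2 library against 2 of R57C10. In Tdc2 against R57C10, 44 members in 29 loci were called, 37 higher and 7 lower, when 27.8% of all genes were called, 20.2% higher and 7.68% lower. As shares of the members, 21.9% were higher and 4.14% lower. DESeq2 called 14 members, 8.28% of them, when it called 14.8% of all genes. With the trend along enrichment removed edgeR called 0 members and 0.897% of all genes. There 18 members stood at an unadjusted p below 0.05, and 16 of the 44 changed sign.

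The largest rise was at mir-10, where H3K27ac was 38.5 CPM in Tdc2 against 8.73 and 9.20 CPM in R57C10, and 11.0 CPM in OK107. The log2 fold change was 2.10 ± 0.30 (adjusted p = 1.11e-09), and along enrichment 0.76 (adjusted p = 0.262). Inputs were 51.0 CPM in Tdc2 and 48.8 CPM in R57C10, so H3K27ac stayed below input in Tdc2 too. mir-993 had 43.0 CPM in Tdc2 against 13.2 and 17.7 CPM in R57C10, a fold of 1.49 ± 0.28, and mir-iab-8 had 14.9 CPM against 7.03 and 6.68 CPM, a fold of 1.12 ± 0.34, both also under their inputs. Along enrichment both changed sign, to -0.10 and -0.45.

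The other large rises were likewise at windows below input. mir-375, a microRNA of pancreatic islet cells in mammals, had 47.8 CPM in Tdc2 against 12.8 and 16.7 CPM in R57C10, on inputs of 91.4 and 83.3 CPM, and a fold of 1.71 ± 0.28 (adjusted p = 1.61e-07). mir-955 rose by 1.53 ± 0.29, and mir-992, mir-991 and mir-994 by 1.50, 1.50 and 1.49. mir-2498, mir-318 and mir-31a rose by 1.49, 1.33 and 1.25. All 6 members of the mir-310 cluster were higher, with a median of 0.96, and so were 5 of 14 mirtrons, led by mir-1003 at 1.02 ± 0.28. Along enrichment mir-310 to mir-313 changed sign, to between -0.30 and -0.11.

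The 7 lower members included windows that carried H3K27ac in R57C10. mir-276a had 69.9 CPM in Tdc2 against 131 and 139 CPM in R57C10, on inputs of 46.1 and 43.1 CPM, a log2 fold change of -0.95 ± 0.29 (adjusted p = 0.00831). The Tdc2 value lay between its input and R57C10, and along enrichment the fold was -0.48 (adjusted p = 0.574). mir-276b had 68.7 CPM in Tdc2 against 129.7 and 94.1 CPM in R57C10, a fold of -0.70 ± 0.30 that was not called (adjusted p = 0.0586). The others were mir-954 at -0.89, mir-303 at -0.86, mir-995 at -0.81, mir-305 at -0.79, mir-990 at -0.76 and mir-275 at -0.75, of which all but mir-275 share a window with another promoter. The input of mir-954 was also lower in Tdc2, by a log2 ratio of -0.47.

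Set side by side, 10 members were called in both lysine 27 marks between Tdc2 and R57C10, which was 40.0% of the H3K27me3 calls and 22.7% of the H3K27ac calls, and 5.92% of members. Of all genes 2.52% were called in both, 34.1% of the H3K27me3 calls and 9.04% of the H3K27ac calls. At 5 of them, mir-10, mir-993, mir-972, mir-977 and mir-2499, H3K27me3 was lower and H3K27ac higher in Tdc2. Along enrichment mir-10 alone of these 5 kept both directions: in H3K27ac mir-993, mir-972, mir-977 and mir-2499 turned to between -0.28 and -0.10, and mir-972 and mir-977 turned in H3K27me3 as well. At mir-276a the directions were the opposite, with both kept along enrichment, and at mir-310 to mir-313 both marks were higher, with H3K27ac turning along enrichment. No member was called lower in both marks.

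**Figure D3:**
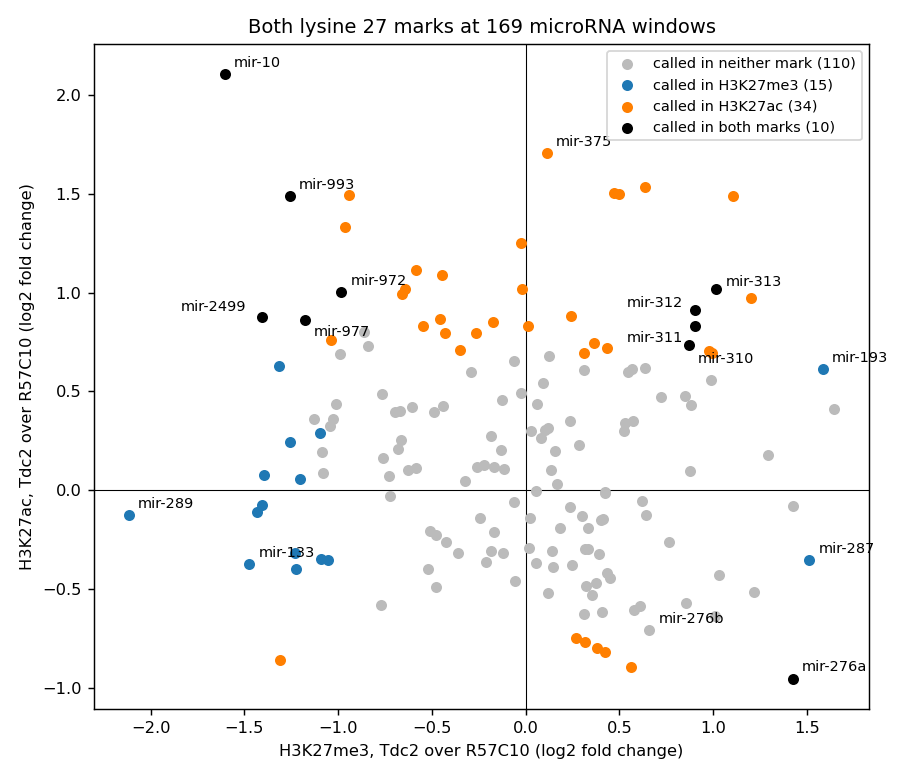
Log2 fold change of Tdc2 over R57C10 in H3K27me3 (horizontal) and H3K27ac (vertical) for 169 microRNA windows, 1 point each, coloured by the marks in which the member was called. mir-10 stands at the upper left, with less H3K27me3 and more H3K27ac in Tdc2, and mir-276a at the lower right.

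Kenyon cells were compared with octopaminergic neurons in H3K27me3, with 1 OK107 library against 2 of Tdc2. In OK107 against Tdc2, 22 members in 10 loci were called, 21 higher and 1 lower, when 4.52% of all genes were called, 4.33% higher and 0.19% lower. This comparison shares its Tdc2 libraries with the one above. With the trend along enrichment removed 0 members were called by edgeR, with 29 at an unadjusted p below 0.05, and all 22 kept their direction. Without Tdc2 late, which leaves OK107 beside the Tdc2 library of the same date tag, 57 members were called, 35 higher and 22 lower, and without Tdc2 early 59. These were 33.7% and 34.9% of members, close to the 33.4% and 36.6% of all genes called at the same settings.

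The member with the largest fold was mir-133 (2L, 20616617 to 20616714). It had 351 CPM in OK107 against 86.4 and 60.1 CPM in Tdc2, on inputs of 82.8 and 77.9 CPM, a log2 fold change of 2.26 ± 0.31 (adjusted p = 0.0192). mir-1, needed in muscle (2L, 20487441 to 20487531), had 245 CPM in OK107 against 59.3 and 67.8 CPM in Tdc2, on inputs of 78.2 and 96.6 CPM, a fold of 1.95 ± 0.27 (adjusted p = 0.0194). OK107 was over 2-fold above input at both hairpins, with log2 ratios of 2.51 and 2.07. The Tdc2 ratios were 0.63 and 0.10 at mir-133 and -0.22 and -0.04 at mir-1. mir-288, in the same locus as mir-133, was higher by 2.08 ± 0.30, and along enrichment mir-133, mir-1 and mir-288 stood at 1.50, 1.56 and 1.38. Of the marker genes of other cell types, 0 of 8 for muscle, fat body and blood, 1 of 7 glial and 1 of 8 photoreceptor genes were called in this comparison. The last 2, gcm and inaD, were higher in OK107, by 1.65 ± 0.30 (adjusted p = 0.0289) and 1.68 ± 0.38 (adjusted p = 0.0493).

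Of the early embryo list 9 of 10 members were higher in OK107, by 1.33 to 1.91 on the log2 scale. mir-4 (2R, 15548794 to 15548874) had 173 CPM in OK107 against 59.3 and 34.2 CPM in Tdc2, on inputs of 93.8 and 115 CPM. Its fold of 1.88 ± 0.32 (adjusted p = 0.0243) was 1.83 along enrichment. Of these 9 members, mir-318 and mir-994 lie on 3R and the others are neighbours in 1 locus, so the count stands for 2 places in the genome. The 3 mir-6 hairpins are also the 3 of 13 members of the mir-2 seed family that rose. The mir-6 hairpins of this locus are close copies of each other, so reads may have been split among them.

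mir-1010, a mirtron of SKIP (3R, 18118601 to 18118671), had 188 CPM in OK107 against 55.5 and 29.4 CPM in Tdc2, on inputs of 103 and 81.2 CPM, a fold of 2.14 ± 0.34 (adjusted p = 0.0231). mir-957 was higher by 1.91 ± 0.30 and mir-958 by 1.65 ± 0.32. Of the mir-959 cluster 5 of 6 members were higher, mir-959 at 541 CPM in OK107 against 149 and 194 CPM in Tdc2, a fold of 1.65 ± 0.31 that was 0.72 along enrichment. At mir-10 the fold was 1.57 ± 0.31 (adjusted p = 0.0349), and 0.49 along enrichment.

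The 1 lower member was mir-276a, with 22.8 CPM in OK107 against 75.7 and 95.8 CPM in Tdc2, when inputs were 29.8 and 46.1 CPM. Its input was thus also lower in OK107, and the part of input in the fold was not tested. OK107 lay near input, at a log2 ratio of 0.04, and both Tdc2 libraries above it. The lines differed by a log2 fold change of -1.91 ± 0.33 (adjusted p = 0.0251) that was -1.90 along enrichment (adjusted p = 0.101). mir-276b had 44.3 CPM in OK107 against 57.4 and 79.7 CPM in Tdc2, a fold of -0.63 ± 0.31 that was not called (adjusted p = 0.298).

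**Figure D4:**
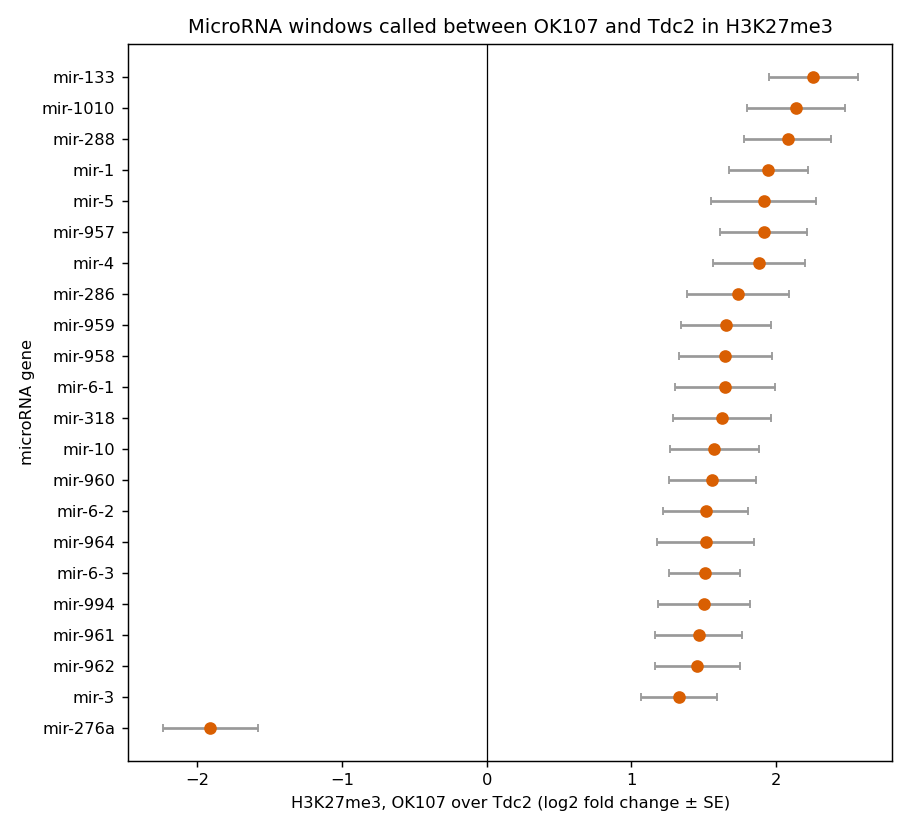
Log2 fold change of H3K27me3 in OK107 over Tdc2, with its standard error, for the 22 called microRNA windows. The 21 higher members run from mir-3 at 1.33 to mir-133 at 2.26, and mir-276a is the 1 lower member at -1.91.

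Kenyon cells were also compared with all neurons. In H3K27me3, 0 members and 0 of 14731 genes were called in OK107 against R57C10 by edgeR (0.0% of genes). At an unadjusted p below 0.05 there were 24 members, and DESeq2 called 3, when it called 0.862% of all genes. The Kenyon cell gene ey had 56.5 CPM in OK107 against 434 and 595 CPM in R57C10. Its log2 fold change by edgeR was -3.19 ± 0.37 (adjusted p = 0.246), so even a difference of this size was not called. In a model of these 2 lines alone 33 members were called, 28 higher and 5 lower, when 8.30% of all genes were. The same form of model gave 32 calls for Tdc2 against R57C10, 18.9% of members, when 9.3% of all genes were called. Without Tdc2 early or Tdc2 late 30 and 29 members were called, when 7.44% and 7.53% of all genes were, again with the spread taken from the R57C10 pair alone. mir-184, with 86.3 CPM in OK107 against 214 and 274 CPM in R57C10, had the lowest unadjusted p, 0.00143, at a fold of -1.50 ± 0.31 (adjusted p = 0.389). mir-1 stood at 1.18 ± 0.26 (adjusted p = 0.395), mir-10 at -0.03 ± 0.31 and mir-276a at -0.49 ± 0.31, neither of the last 2 called.

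In H3K27ac 10 members were called in OK107 against R57C10, 7 higher and 3 lower, when 10.5% of all genes were called, 7.42% higher and 3.07% lower. DESeq2 called 0 members (1.22% of all genes), with 19 at an unadjusted p below 0.05. A model of the 2 lines alone called 6 (5.91% of all genes). The scaling along enrichment called 4 (4.35% of all genes), 1 higher and 3 lower. mir-375 had 32.1 CPM in OK107 against 12.8 and 16.7 CPM in R57C10, a log2 fold change of 1.13 ± 0.28 (adjusted p = 0.00286), and mir-955 rose by 1.03 ± 0.30, both at levels below input. The other higher members were mir-1003 at 0.95, mir-263b, which protects sense organs, at 0.93, mir-2500 at 0.89, mir-2494 at 0.85 and mir-1004 at 0.83. Inputs of most higher members were also higher in OK107 than in R57C10. The log2 input ratios were 0.55 at mir-1003, 0.46 at mir-375, 0.40 at mir-2494 and 0.31 at mir-1004. They were 0.29 at mir-2500, 0.13 at mir-263b and -0.07 at mir-955, against a median of -0.096 over the members. The part of input in these rises was not tested. mir-276a was at 90.2 CPM in OK107 against 131 and 139 CPM in R57C10, a fold of -0.58 ± 0.29 that was not called (adjusted p = 0.175).

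The 3 lower members had lower inputs too, whose part in the falls was not tested. The input of mir-276a, which was not called, was also lower in OK107 than in R57C10, by a log2 ratio of -0.53. mir-982 had 0.81 CPM of H3K27ac in OK107 against 4.61 and 3.64 CPM in R57C10, a fold of -2.35 ± 0.64 (adjusted p = 0.00736), but its input held 13 reads in OK107 and 97 in R57C10. No other member had inputs this far apart between R57C10 and either other line, and the next was mir-287, at a log2 ratio of 1.00 in Tdc2 over R57C10. mir-954, on chromosome 4, fell by 0.97 in H3K27ac and its input by 0.75, when the median input ratio of the 85 genes of chromosome 4 was -0.77. mir-980 was lower by 1.27 ± 0.39 (adjusted p = 0.0214), on an OK107 input of 10.9 CPM and an R57C10 input of 19.4 CPM.

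With 1 library each, OK107 and Tdc2 could be set side by side in the active marks without a test. In H3K27ac 0 members were over 2-fold higher in OK107 and 14 over 2-fold lower, when 0.125% of genes were higher and 2.33% lower, and no member differed over 2-fold between the 2 R57C10 libraries. The largest difference was at mir-10, 11.0 CPM in OK107 and 38.5 CPM in Tdc2. mir-276a had 90.2 CPM in OK107 and 69.9 CPM in Tdc2, on inputs of 29.8 and 46.1 CPM. In H3K4me3 3 members were over 2-fold higher and 84 over 2-fold lower, when 11.1% of genes were higher and 35.3% lower, but 105 of 169 members also differed over 2-fold between the R57C10 libraries.

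H3K4me3 showed no member that differed between lines by edgeR's test. In Tdc2 against R57C10 0 members were called (0.0% of genes), with 2 at an unadjusted p below 0.05, mir-990 at -1.65 ± 0.57 and mir-1000 at -1.26 ± 0.51. DESeq2 called 0, with 37 at an unadjusted p below 0.05. The median of all genes was 0.50 on the TMM scale and -0.12 with RLE scaling, so the sign of small folds depends on the scaling, and mir-276a, at -0.97 ± 0.56 (adjusted p = 0.653), lay 1.47 below that median. In OK107 against R57C10 0 members were called by either tool, when 0.00679% of genes were, with 0 at an unadjusted p below 0.05 by edgeR and 3 by DESeq2. The R57C10 pair, which alone gives the spread in this mark, stood at 10.3 and 3.47 CPM at mir-10 and at 85.1 and 156 CPM at mir-276a in early and late, so moderate differences were not detectable. The 3 Hox members had folds of 1.64 to 1.70 in Tdc2 against R57C10, and the 6 members of the mir-310 cluster 1.45 to 1.94, none of them called.

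Broader domains were read in 10 kb windows with a 5 kb step, counted in OK107 and Tdc2 alone. The 169 members fell in 124 distinct windows of 26005 kept, differences are OK107 minus Tdc2 in log2 CPM after subtracting the median of all windows, ratios to input are by total counts, whose 0 is not that of the ratios above, and with the 2 Tdc2 libraries of H3K27me3 summed there was no test. In H3K27me3, 12 member windows (9.68%) were over 2-fold higher in OK107, when 10.3% of all windows were, and 2 (1.61%) were over 2-fold lower, when 0.588% were. In H3K27ac, 0 were over 2-fold higher (0.215% of all windows) and 2 over 2-fold lower (1.61%, when 1.82% of all were).

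The 2 windows with less H3K27me3 in OK107 held mir-276a and mir-276b. At mir-276a (3L, 10355001 to 10365000) the log2 ratio of H3K27me3 to input was -0.97 in OK107 and 0.56 in Tdc2, a difference of -1.51 that lay at percentile 0.11 of all windows. At mir-276b (3L, 10310001 to 10320000) the ratios were -0.95 in OK107 and 0.51 in Tdc2, a difference of -1.34 at percentile 0.16. Input was not taken out of these differences and percentiles, so they are not the differences between the printed ratios. H3K27ac ran the other way, with ratios of 1.39 in OK107 and 0.35 in Tdc2 at mir-276a and 1.23 and 0.37 at mir-276b, at percentiles 98.9 and 98.3. mir-276b, whose 1001 bp window was not called, thus lay in a 10 kb window like that of mir-276a. Both windows are part of the same broad stretch and not separate features of the hairpins. From -98.38 to 56.62 kb of mir-276a, H3K27me3 ratios ran from -1.14 to -0.72 in OK107 and from -0.08 to 0.99 in Tdc2.

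The 2 windows with less H3K27ac in OK107 held mir-10 and mir-993. Both are part of the same broad stretch. From -95.27 to 99.73 kb of mir-10, H3K27ac ratios ran from -2.66 to -1.63 in OK107 and from -1.19 to -0.27 in Tdc2. At mir-10 the ratios of H3K27ac to input were -2.09 in OK107 and -0.60 in Tdc2, and at mir-993 -2.27 and -0.63. The differences in the mark, with input not taken out, were -1.40 and -1.49. H3K27me3 was above input in both lines there, with ratios of 2.16 in OK107 and 1.45 in Tdc2 at mir-10 and of 2.03 and 1.47 at mir-993. At mir-1, mir-133, mir-1010 and mir-959 H3K27me3 was higher in OK107 by 1.79, 1.78, 1.78 and 1.59, and H3K27ac differed by -0.11, 0.05, -0.02 and -0.30.

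**Figure D5:**
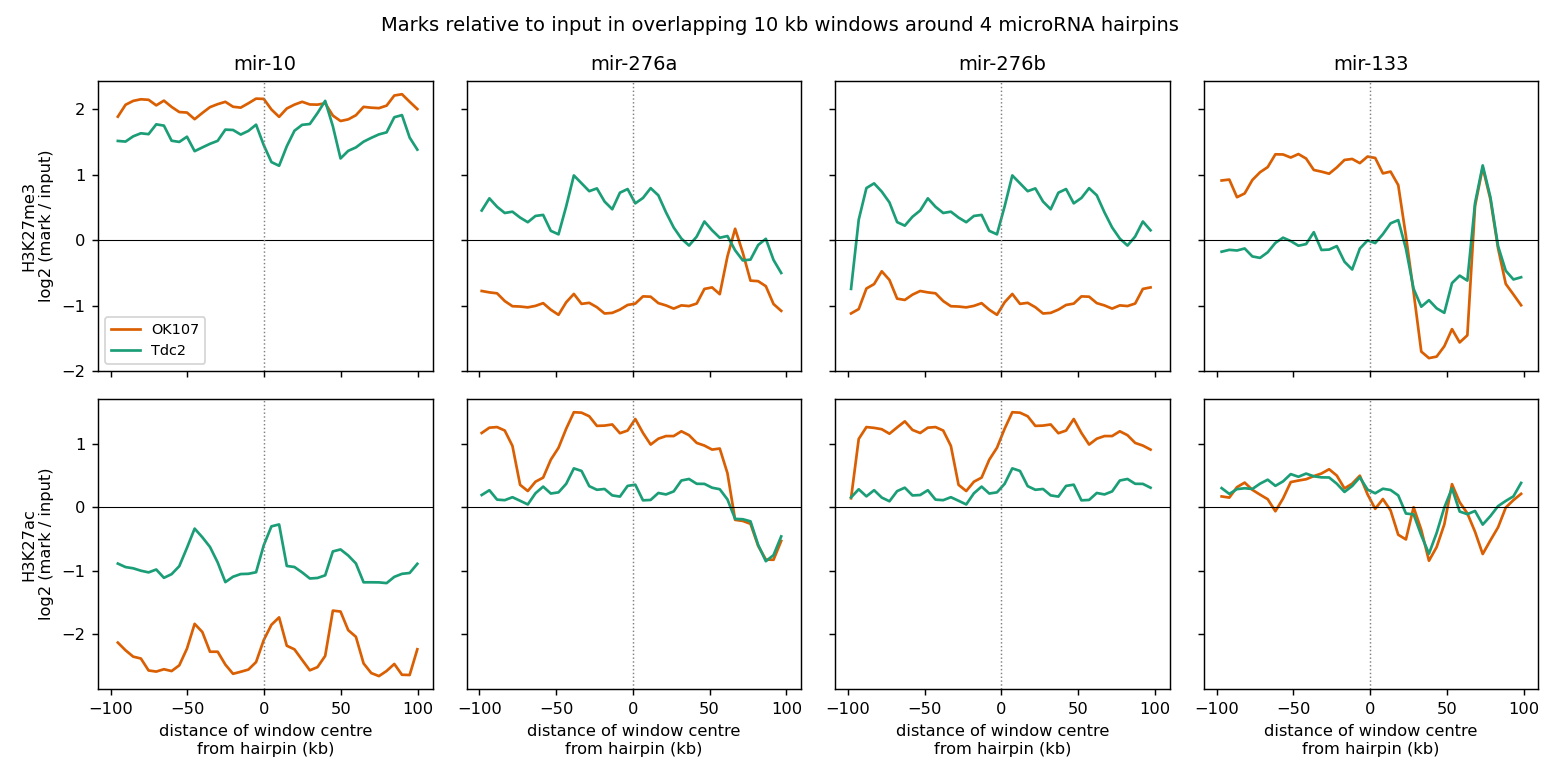
Log2 ratio of H3K27me3 (upper row) and H3K27ac (lower row) to input in 10 kb windows, by total counts and by distance of the window centre from the hairpin in kb, for OK107 and Tdc2. Around mir-276a and mir-276b OK107 lies below 0 in H3K27me3 and above Tdc2 in H3K27ac at the hairpin, and around mir-10 both lines stay above 0 in H3K27me3. Around mir-133 OK107 lies above Tdc2 in H3K27me3 up to about 18 kb on the right, and further out it meets Tdc2 or falls below it. H3K27ac of the 2 lines is close at that hairpin.

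The genes that make and use microRNAs were read as a list of 19, among them drosha, pasha, Dcr-1, loqs and AGO1. Of these 18 were higher than input in H3K4me3, with a median of 2.12 on the log2 scale, and 12 in H3K27ac, when 40.4% and 35.9% of all genes were. In H3K27me3 7 were lower and none higher, when 22.8% of all genes were lower and 21.9% higher. The list was written from general knowledge. In H3K27me3 0 of 19 were called in any comparison of lines. In H3K27ac 0 were higher and 2 lower in Tdc2 against R57C10, with a list median of -0.46 against -0.04 over all genes, and 0 were higher and 2 lower in OK107 against R57C10, with a median of -0.31. The shares of all genes called lower were 7.68% and 3.07%. Those lower in Tdc2 were twin, a deadenylase, at -0.75 ± 0.29 and Dcr-2, which makes small interfering RNAs, at -0.77 ± 0.30. Those lower in OK107 were me31B, a repressor of translation, at -1.06 ± 0.31 and gw at -1.02 ± 0.31. In H3K4me3 0 were called in either comparison with R57C10.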

How the data were processed

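The deposited values were raw read counts per annotated isoform and per 10 kb window. According to the submitters' processing notes, CASAVA 1.8, Bowtie 0.12.7 and bedtools 2.15 were used with the dm3 assembly. How reads matching several places were treated is not given in these sources. Of 25701 isoform entries, 203 without a gene, with 0.723 to 1.16% of counts, and 92 spike-in entries with 0 counts were left out. A gene was represented by its isoform with most reads in a mark, and each microRNA had 1. Another count of hairpin bodies was looked at and left out, because those bodies hold few reads and their columns could not be matched to single libraries beside the windows. In it H3K27me3 changed sign at mir-313, a called member, and at mir-276b in Tdc2 against R57C10, and at mir-276b in OK107 against Tdc2.

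Counts of a mark in the 3 lines entered 1 edgeR model (version 4.0.16, R 4.3.3) with TMM scaling, filterByExpr and the quasi-likelihood test. Single libraries were assumed to vary like the replicated ones, and residual degrees of freedom were 2 for H3K27me3 and 1 for each active mark. A second model of line and immunoprecipitation compared marks with inputs. Errors of folds are standard errors. Mark levels are TMM-scaled CPM, and inputs are CPM by total count, so the 2 are not on the same scale. Ratios to input used 1 TMM scaling of marks and inputs with a pseudocount of 0.5 counts, and 10 kb windows total counts. Alternatives were DESeq2 1.42.0, total count and RLE scaling, no filter, the 2 compared lines alone, loess scaling along enrichment (span 0.3) and leaving out each replicate. The enrichment for that scaling was the mark-to-input ratio, by total counts, of the line not compared. Fits were also run on simulated counts, with a spread set below the common dispersion of every main fit and no trend along enrichment. That run therefore says nothing on how the calls stand up to the real spread or to such a trend.

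Members and lists were chosen with earlier results of these data known. Named members were the called ones, up to 10 in each direction by size of fold, with mir-10, mir-276a and mir-276b and up to 4 of each group. Members named for single-library values, for 10 kb windows, for shared windows or for both marks were chosen after their values were seen. Another 63 sample columns were not used.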

Additional observations from a re-analysis of the deposited data

How the results depend on the processing

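No paired analysis was possible because the columns carry no replicate numbers. In H3K27me3 for Tdc2 against R57C10 the 25 calls became 53 with total counts, 38 with DESeq2 and 0 along enrichment, and 17 to 80 when 1 library was left out. Of all genes 16.2% were called with total counts and 11.9% with DESeq2. Along enrichment mir-972 turned to 0.31 and mir-977 to 0.0201, and the other 23 called members kept their direction under every alternative tabulated. That leaves out the hairpin-body count, in which mir-313, a called member, changed sign. For OK107 against R57C10 the 0 calls became 2 with total counts, 3 with DESeq2, 33 with the 2 lines alone and 0 to 30 when 1 library was left out. Of all genes 0.516% were called with total counts, 0.862% with DESeq2 and 8.30% with the 2 lines alone. In this comparison mir-10, not called, ran from -0.25 without R57C10 early to 0.21 without R57C10 late, and mir-276b was -0.0204 with total counts. For OK107 against Tdc2 the 22 calls became 0 along enrichment and 29 to 59 when 1 library was left out, and all 22 kept their direction under every alternative tabulated. Over input the 88 H3K27me3 calls became 56 to 105 when 1 library was left out.

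In H3K27ac for Tdc2 against R57C10 the 44 calls became 14 with DESeq2 and 0 along enrichment, where 16 called members changed sign: mir-1015 (-0.11), mir-1016 (-0.29), mir-2499 (-0.16), mir-310 (-0.30), mir-311 (-0.20), mir-312 (-0.18), mir-313 (-0.11), mir-316 (-0.20), mir-318 (-0.0669), mir-33 (-0.23), mir-92a (-0.0568), mir-972 (-0.16), mir-976 (-0.47), mir-977 (-0.28), mir-993 (-0.10) and mir-iab-8 (-0.45). Of all genes DESeq2 called 14.8% there and the scaling along enrichment 0.897%. For OK107 against R57C10 the 10 calls became 0 with DESeq2, 6 with the 2 lines alone and 4 along enrichment. The shares of all genes called were 1.22%, 5.91% and 4.35% in the same order. In H3K4me3 for Tdc2 against R57C10 total counts gave 1 call, when 1.09% of all genes were called. The cause of these changes was not tested. Libraries were not left out in line comparisons of the active marks, where no residual degree of freedom would remain, and alternatives for 10 kb windows were not run because those values have no test. The Tdc2 libraries of H3K27me3 limit the depth.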
